A study of Mus musculus with 54 samples.

Results

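The step from day 2 to day 4 of random differentiation was followed in the scrambled control line (SCR) of murine CGR8 embryonic stem cells (ESCs). The members were the 3 arrays titled SCR d4 and the 3 arrays titled SCR d2, 6 of the 54 arrays of the series. CGR8 ESCs come from male mice of a 129 strain. SCR ESCs carried a plasmid for a non-targeting scrambled shRNA, were selected with puromycin and are a polyclonal line. The 2 other lines are KD ESCs, which carried an shRNA plasmid against the cancer-testis gene Mageb16, and untransfected wild-type ESCs (WT). All lines formed embryoid bodies (EBs), aggregates in which ESCs differentiate without added lineage signals, from hanging drops. Total RNA was amplified, labelled with biotin and hybridised to Affymetrix Mouse Genome 430 2.0 arrays, with 3 arrays for each of 18 combinations of line and day (days 0, 2, 4, 12, 15 and 22). Values are log2 signals, so a difference of 1 is a 2-fold change. The labels number the 3 arrays of a group as chips and do not say whether they come from separate cultures. The p-values rest on the spread between arrays within all 18 groups, which share a variance estimate for each probe set. They do not rest on the 6 SCR arrays alone, and this spread may be technical. A fit that weights each array by how closely it follows its group mean gave array 3 the largest weight on both days. Array 3 also had the largest weight in every other group of the series except day 22 KD EBs. The weights of SCR arrays 1 to 3 were 0.32, 0.668 and 3.13 at day 4, and 0.746, 0.852 and 2.44 at day 2. Whether the 3 arrays are independent was not tested, and if they are not, the p-values are too small.

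ESCs express a core set of pluripotency factors, led by Pou5f1, Sox2 and Nanog, and in the naive state also factors such as Esrrb, Klf4 and Tbx3. On leaving this state, cells in EBs take on features of the epiblast around implantation, with Fgf5, Otx2 and Pou3f1, and lose naive factors while the core factors remain. Under Nodal, Wnt and BMP signals, epiblast cells then form a primitive streak marked by Eomes and Mixl1, from which Mesp1-positive mesoderm and Sox17-positive endoderm arise.

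Markers of pluripotent cells were measured well above the dim range on both days. Of 7 markers of undifferentiated stem cells none was under the lower quartile of the arrays at day 4 or at day 2, and of 4 epiblast markers likewise none. Of 5 blood and endothelial markers all 5 were under the lower quartile on both days, as were 3 of 3 measured trophoblast markers, 3 of 5 endoderm markers at day 4 (2 of 5 at day 2), 1 of 5 mesoderm markers and 2 of 6 fibroblast markers on both days. Across all probe sets the mean profile of day 4 SCR EBs correlated most with day 2 KD EBs (r = 0.9845), then with day 2 WT EBs (r = 0.9829) and day 2 SCR EBs (r = 0.9795), and less with day 4 WT EBs (r = 0.9603) and day 4 KD EBs (r = 0.9564). Above day 4 WT EBs also came day 22 WT EBs (r = 0.9685), day 12 SCR EBs (r = 0.9682) and undifferentiated KD ESCs (r = 0.9613). Day 4 EBs of the other lines were in turn further from their own day 2 EBs, at r = 0.9502 in WT and 0.9494 in KD. These correlations are across probe sets, which are not independent, and share the array design and processing. Day 4 SCR EBs differed from day 4 WT EBs at 2798 probe sets and from day 2 WT EBs at 1301. They thus stood apart from the other lines of the same day, which touches each comparison between lines below. Whether this comes from the line or from the sampling of these EBs cannot be told apart with these arrays.

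A probe set was called where limma gave an adjusted p under 0.05 and the change was 2-fold or more. By this rule 1781 of 30939 probe sets (5.76%) differed between day 4 and day 2 SCR EBs. Of these, 1371 (4.43%) were higher and 410 (1.33%) lower at day 4. With each array centred on its median, the split was 1038 higher and 594 lower, and the share of higher calls was 63.6% in place of 77%. Day 4 arrays had medians of 5.98, 6.14 and 6.10, and day 2 arrays of 5.96, 5.94 and 5.98. Centring moved every change by -0.113. Without day 4 array 1, which had the lowest day 4 median, 2075 probe sets passed. For 14104 genes, each read from its brightest probe set over all arrays, 667 (4.73%) changed, of which 432 (3.06%) rose and 235 (1.67%) fell. For 6942 genes (49.2%) the day 4 and day 2 arrays did not overlap. All 432 genes that rose and all 235 that fell were among them. A lack of overlap is thus no further support for a called gene below. The same step changed 3937 probe sets (12.7%) in WT EBs and 3869 (12.5%) in KD EBs. In these bulk samples, fewer cells of a type and less RNA per cell cannot be told apart.

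No core pluripotency factor fell past the test, and Nanog rose. Of 12 measured core genes 1 rose and none fell, with a median change of -0.10 against -0.05 over all genes. Over all genes 3.06% rose and 1.67% fell, and each list count below is to be read against these shares. Pou5f1, the POU-domain factor Oct4, was at 11.47, 11.58 and 11.58 in day 4 EBs, against 11.54, 11.51 and 11.57 in day 2 EBs. The days overlapped, with a difference of 0.00 (SE 0.21, limma adjusted p = 0.992). Sox2, its partner on DNA, was at 11.29, 11.56 and 11.35 at day 4, against 11.79, 11.76 and 11.92 at day 2, a difference of -0.42 (SE 0.144, adjusted p = 0.0164) under the 2-fold minimum. Nanog, a homeobox factor of the same network, was at 10.91, 11.23 and 11.15 at day 4, against 9.74, 9.48 and 9.66 at day 2. All 3 day 4 values were above all day 2 values, and the rise was 1.47 (SE 0.21, limma adjusted p = 4.01e-07). Lin28a, an RNA-binding protein of ESCs, and Dppa4, a chromatin-associated ESC factor, differed by 0.06 and -0.04. Dppa2, the partner of Dppa4, differed by -0.84 and did not reach 2-fold. Mageb16, the gene that the KD line targets, was at 9.75, 9.30 and 9.48 at day 4, against 9.99, 10.15 and 10.14 at day 2, a difference of -0.58 (adjusted p = 0.0047) under the 2-fold minimum.

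Part of the naive factors fell. Of 24 measured naive genes 5 fell and 1 rose, with a median of -0.61. Esrrb, an orphan nuclear receptor, was at 7.60, 7.84 and 7.83 in day 4 EBs, against 9.22, 8.81 and 9.10 in day 2 EBs. The days did not overlap, and Esrrb fell by 1.29 (SE 0.215, limma adjusted p = 6.06e-06), although the mean of its 3 probe sets gave -0.97. Fgf4, a growth factor that ESCs secrete, fell by 1.60 (SE 0.194), with no overlap of the days. Nr0b1, an orphan nuclear receptor of the pluripotency network, fell by 1.47 (SE 0.213). Klf4, a Krüppel-like factor, was at 5.39, 6.34 and 6.01 at day 4, against 7.43, 6.36 and 7.30 at day 2. The highest day 4 array lay only just under the lowest day 2 array, and the call was lost without day 4 array 1 (-0.86) or without day 2 array 1 (-0.92) or 3 (-0.98). Without day 2 array 1 or 3 the count of naive genes that fell was 3, and on the means of probe sets, which put Klf4 at -0.96, it was 2. Tbx3, a T-box factor, fell by 1.03 (SE 0.188). The member that rose was Dppa3, a maternal factor also known from germ cells, at 7.70, 6.76 and 7.47 in day 4 EBs against 5.58, 5.65 and 5.34 in day 2 EBs. Zfp42, the zinc finger protein Rex1, differed by -0.40 (adjusted p = 0.0671).

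Epiblast genes moved both ways. Of 15 measured formative and primed genes 2 rose and 3 fell, with a median of 0.24. Fgf5, the growth factor that marks the epiblast, was at 9.08, 9.26 and 9.29 in day 4 EBs, against 8.16, 8.27 and 8.15 in day 2 EBs. Its groups did not overlap, and its rise of 1.02 (SE 0.221, limma adjusted p = 0.000254) lay at the 2-fold minimum and was 0.90 with centred arrays. Pim2, a serine/threonine kinase, was at 10.80, 11.04 and 10.92 at day 4, against 9.82, 9.99 and 9.86 at day 2, and its rise of 1.03 was 0.92 with centred arrays. The call for Fgf5 was lost without day 2 array 3 (0.99) or without day 4 array 2 (0.99) or 3 (0.98), and that for Pim2 without day 2 array 1 (0.99) or day 4 array 2 (0.97). Otx2 and Pou3f1, homeobox and POU factors of the epiblast, differed by 0.24 and -0.38, neither past the test. Tcf15, a bHLH factor tied to the exit from the naive state, was at 8.19, 8.43 and 8.38 in day 4 EBs, against 9.91, 9.79 and 9.87 in day 2 EBs, and fell by 1.52 (SE 0.133). Fgf15, the mouse counterpart of human FGF19, fell by 1.30 (SE 0.229). Nodal, the ligand of the pathway that keeps the epiblast, was at 9.57, 9.87 and 9.68 at day 4, against 9.80, 9.52 and 9.61 at day 2. None of 17 measured genes of the Nodal pathway passed the test, and their median was 0.16.

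Factors of de novo DNA methylation fell in part. Of 12 measured genes of DNA methylation 2 fell and none rose, with a median of -0.40. Dnmt3l, the catalytically inactive cofactor of the de novo methyltransferases, was at 8.61, 8.29 and 8.45 in day 4 EBs, against 10.95, 10.85 and 10.91 in day 2 EBs. It fell by 2.45 (SE 0.208, limma adjusted p = 3.04e-12), among the 12 largest falls. Dnmt3a, a de novo methyltransferase, fell by 1.07 (SE 0.14), but its 5 probe sets ran between -1.25 and 0.41 and their mean was -0.58. Without day 4 array 1 its change was -0.97. Neither passed. Dnmt3b, the other de novo methyltransferase, was at 12.20, 12.44 and 12.31 at day 4 and at 12.38, 12.41 and 12.46 at day 2, which differed by -0.10. The maintenance genes Dnmt1, Uhrf1 and Hells differed by -0.30, -0.49 and -0.21.

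Of 21 measured germ line genes 4 fell and 1 rose. Mael, a piRNA pathway protein that represses transposons, was at 6.63, 6.90 and 6.73 in day 4 EBs, against 7.84, 8.01 and 7.97 in day 2 EBs, and fell by 1.19 (SE 0.242). Slc25a31, a mitochondrial ADP/ATP carrier of the testis, fell by 1.39, Dazl, a germ cell RNA-binding protein, by 1.06 and Tex19.1 by 1.02. Dazl was at -0.77 without day 4 array 1 and at -0.72 on the mean of its probe sets, and no longer passed. Tex19.1 was at -0.97 without day 4 array 1 or day 2 array 1 and just under the minimum without day 2 array 3, and its call was lost in each case. Tfap2c, an AP-2 factor of germ cells and trophoblast, rose by 1.69 (SE 0.266).

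**Figure D1:**
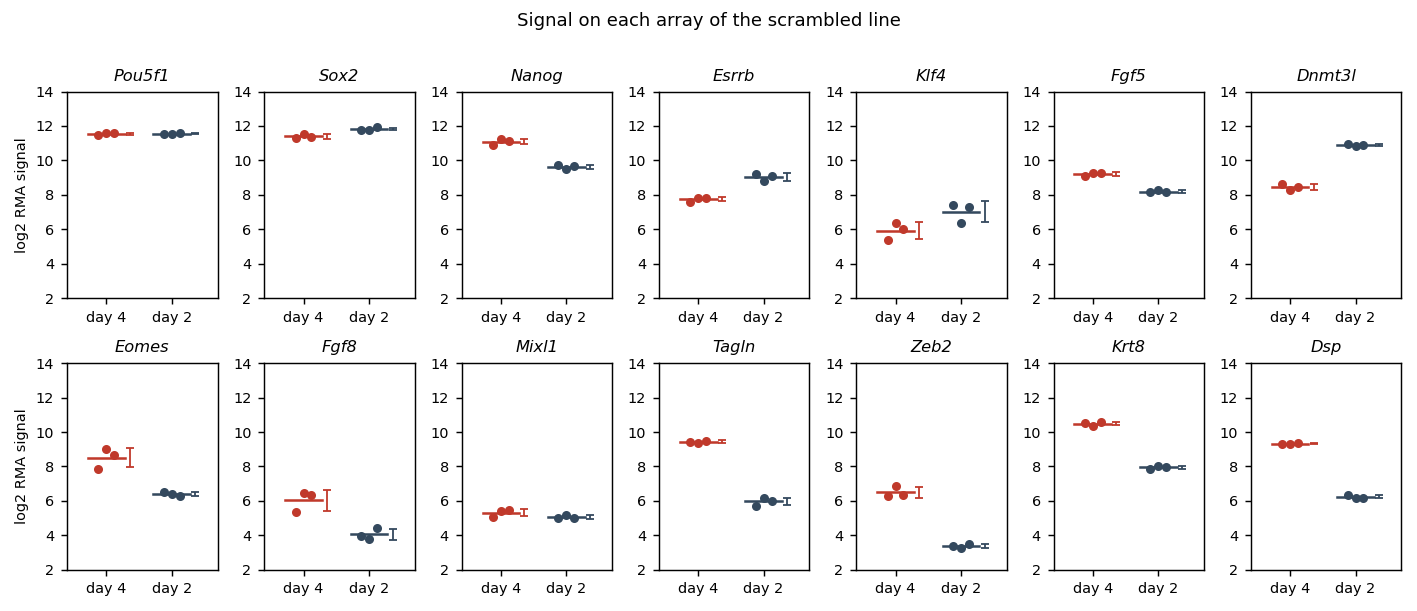
Log2 signal (vertical axes) of 14 genes on each SCR array, with day 4 left of day 2 in each panel. Points are single arrays, horizontal lines are means and bars are SD (n = 3 each). Pou5f1 was level on both days, Nanog and Fgf5 were higher at day 4, Esrrb and Dnmt3l were lower, and Mixl1 differed by 0.26.

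Part of the primitive streak set rose, and no gene of lateral plate and cardiac mesoderm passed the test. Of 17 measured streak genes 4 rose and 1 fell, with a median of 0.45. Eomes, a T-box factor of the early streak, was at 7.88, 8.99 and 8.67 in day 4 EBs, against 6.50, 6.39 and 6.27 in day 2 EBs. Array 1 was the lowest of day 4, all 3 lay above day 2, and Eomes rose by 2.13 (SE 0.254, limma adjusted p = 1.01e-08). Fgf8, a growth factor of the streak, was at 5.33, 6.46 and 6.32 at day 4, against 3.98, 3.81 and 4.41 at day 2, with array 1 again the lowest of day 4. It rose by 1.97 (SE 0.291). Amot, a junction protein that binds Yap1, rose by 2.23 (SE 0.116) on its brightest probe set, and the mean of its 3 probe sets gave 0.76. Frzb, a secreted Wnt antagonist, rose by 1.43 and was at 0.88 on the mean of its probe sets. Dll1, a Notch ligand, was at 5.39, 5.85 and 5.53 at day 4, against 8.03, 7.77 and 7.98 at day 2, and fell by 2.34 (SE 0.236).

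Mixl1, a homeobox gene of the streak, was at 5.09, 5.39 and 5.48 in day 4 EBs, against 4.99, 5.19 and 5.01 in day 2 EBs, and the days overlapped. Mesp1, the early mesoderm factor, was at 4.74, 4.54 and 4.80 at day 4, against 4.58, 4.77 and 4.61 at day 2. Gsc, a homeobox gene of the organiser, and Wnt3, a ligand of streak induction, differed by 0.25 and 0.80 and were under the lower quartile on both days. None of 18 measured genes of lateral plate and cardiac mesoderm passed, with a median of -0.04, and 9 of them were under the lower quartile at day 4 and 7 at day 2. Without day 4 array 1, 2 of the 18 were higher. Sox17, the endoderm factor, was at 2.50, 2.94 and 2.66 at day 4, against 2.82, 3.22 and 2.88 at day 2. Foxa2 and Gata6, further endoderm factors, differed by 0.08 and -0.50. Of 11 measured genes of definitive endoderm 1 rose, Trh, the precursor of thyrotropin-releasing hormone, by 1.56 (SE 0.23). Trh already averaged 9.55 in undifferentiated SCR ESCs at day 0 and 8.88 at day 2. It changed by 0.11 in WT EBs and 0.04 in KD EBs, which were already at 9.77 and 10.06 at day 2. The day 4 means of Trh were 10.44 in SCR, 9.88 in WT and 10.09 in KD EBs. None of 22 measured Hox genes passed. Of 22 extraembryonic endoderm genes 4 rose, namely Cited1, a transcriptional coactivator, and the matrix genes Sparc, Col4a1 and Col4a2. Col4a2 rose by 1.12 and was at 1.00 without day 4 array 3, just under the minimum. On the means of their probe sets Sparc and Col4a1 were at 0.96 and 0.67.

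Part of the keratin and junction genes rose, and part of the mesenchymal genes. Of 19 measured genes of epithelial junctions and keratins 5 rose and none fell, with a median of 0.51. Krt8, a keratin of simple epithelia, was at 10.52, 10.37 and 10.56 in day 4 EBs, against 7.85, 8.01 and 7.97 in day 2 EBs. Krt18, its filament partner, was at 10.70, 10.64 and 10.69 at day 4, against 8.46, 8.78 and 8.66 at day 2. Both keratins were higher on every day 4 array, by 2.54 (SE 0.174, limma adjusted p = 1e-14) and 2.04 (SE 0.204, adjusted p = 1.73e-10). Dsp, the desmosomal plaque protein desmoplakin, was at 9.29, 9.31 and 9.36 at day 4, against 6.33, 6.19 and 6.19 at day 2. It rose by 3.08 (SE 0.162, adjusted p = 7.21e-18), with 2 of its 3 probe sets past the test. Krt19 and Cldn7, a keratin and a claudin, rose by 1.54 and 1.53. Cdh1, the adherens junction cadherin of ESCs, was at 11.35, 11.66 and 11.52 at day 4 and at 11.16, 11.13 and 11.26 at day 2, a difference of 0.33 (adjusted p = 0.00383).

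Of 19 measured genes of mesenchyme and epithelial-mesenchymal transition 6 rose and none fell, with a median of 0.63. Tagln, an actin-binding protein of smooth muscle, was at 9.45, 9.34 and 9.50 in day 4 EBs, against 5.73, 6.18 and 5.99 in day 2 EBs. Its rise of 3.46 (SE 0.227, limma adjusted p = 4e-15) was the largest of any of the 14104 genes past the test. Zeb2, a zinc finger repressor of Cdh1, was at 6.29, 6.86 and 6.36 at day 4, against 3.39, 3.29 and 3.49 at day 2. It rose by 3.11 (SE 0.28), with 4 of its 5 probe sets past the test. Cdh11, a mesenchymal cadherin, was at 4.58, 6.04 and 5.44 at day 4, against 2.64, 3.14 and 3.03 at day 2. Acta2, smooth muscle actin, rose by 1.91, Twist1, a bHLH factor of mesenchyme, by 1.57 and Col1a2, a collagen chain, by 1.18, though the means of their probe sets were 0.93 for Acta2 and 0.72 for Col1a2. Vim, vimentin, was at 9.46, 9.54 and 9.27 at day 4, against 8.70, 8.87 and 8.93 at day 2, a difference of 0.59 (adjusted p = 0.000211) under the minimum. Zeb1, Snai1 and Fn1 differed by -0.60, -0.38 and -0.59. Of 12 measured fibroblast or feeder genes 1 rose, Col1a2. Their summed linear signal was 373 to 382 on day 4 arrays and 291 to 306 on day 2 arrays, and 4 of 12 were under the lower quartile on both days. Their part in the mesenchymal counts was not tested.

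Of 25 measured neural genes 5 rose and none fell, with a median of 0.06. Nes, the intermediate filament nestin, was at 7.45, 7.27 and 7.07 in day 4 EBs, against 5.12, 5.82 and 5.53 in day 2 EBs, and rose by 1.77 (SE 0.229, limma adjusted p = 5.13e-08). Fabp7, a fatty acid-binding protein of radial glia, rose by 1.87, Map2, a microtubule protein, by 1.43, Irx3, a homeobox factor, by 1.33 and Zic1, a zinc finger factor, by 1.28. On the means of their probe sets Map2 and Zic1 were at 0.65 and 0.83. Sox1 and Pax6, defining factors of neural progenitors, did not pass. Sox1 was at 3.25, 3.88 and 3.91 at day 4 and at 3.50, 3.41 and 3.24 at day 2, and Pax6 at 6.07, 6.24 and 6.07 at day 4 and at 6.06, 5.68 and 5.73 at day 2. The days overlapped for Sox1, while for Pax6 all day 4 values lay just above the day 2 values.

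Signalling genes changed at single members, where 3.06% of all genes rose and 1.67% fell. Of 21 measured genes of the FGF and ERK pathway 3 rose and 4 fell. The ligands Fgf8 and Fgf5 rose and the ligands Fgf4 and Fgf15 fell, as given above. Fgfr4, a receptor, was at 4.15, 4.30 and 4.22 in day 4 EBs, against 5.73, 5.28 and 5.45 in day 2 EBs, with no overlap of the days. Of the feedback inhibitors, Il17rd rose by 1.29 (0.93 on the mean of its probe sets) and Spry4 fell by 1.04. Of 21 BMP pathway genes 2 rose. Fst, follistatin, which binds activin and BMPs, was at 7.67, 8.84 and 8.33 at day 4, against 4.66, 5.27 and 5.04 at day 2, a rise of 3.29 (SE 0.294, limma adjusted p = 1.13e-11). Smad6, an inhibitory Smad, rose by 1.26 (SE 0.189). Of 31 Wnt pathway genes 3 rose, the receptors Fzd2 (1.26) and Fzd3 (1.17) and the nuclear factor Tcf7l2 (1.22), and none fell. On the means of their probe sets Fzd3 and Tcf7l2 were at 0.31 and 0.93, and without day 4 array 1 the count of Wnt genes that rose was 5. Of 15 retinoic acid genes 3 rose, the reductase Dhrs3, the carrier Crabp2 and the homeobox target Meis2. Meis2 was at 5.43, 6.96 and 6.46 at day 4, against 5.15, 5.13 and 5.11 at day 2, and without day 4 array 2 its change was 0.82.

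Several genes of the amino acid and endoplasmic reticulum (ER) stress response fell. This response runs through the factor Atf4, which binds composite C/EBP-ATF sites and turns on genes of amino acid supply together with Ddit3, Chac1 and Trib3. Of 17 measured genes 6 fell and none rose, with a median of -0.69. Chac1, a glutathione-degrading enzyme, was at 5.49, 5.52 and 5.30 in day 4 EBs, against 7.86, 7.55 and 7.72 in day 2 EBs, and fell by 2.27 (SE 0.229, limma adjusted p = 2.05e-10). Trib3, a pseudokinase, was at 6.27, 6.52 and 6.68 at day 4, against 8.40, 8.46 and 8.46 at day 2. Ddit3, the stress factor CHOP, was at 6.69, 6.43 and 6.78 at day 4, against 8.11, 8.15 and 8.13 at day 2. All 3 lay below day 2 on each day 4 array. Mthfd2 and Shmt2, mitochondrial enzymes of folate metabolism, fell by 1.32 and 1.24, and Herpud1, a protein of ER-associated degradation, by 1.31. Atf4 itself was at 10.51, 10.42 and 10.43 at day 4, against 11.04, 10.89 and 10.93 at day 2, a difference of -0.50 (adjusted p = 2.11e-07). Hspa5, the ER chaperone BiP, differed by -0.04 and Phgdh, of serine synthesis, by -0.01. In a test against a 2-fold change itself, 2 of the 6 passed. Of the same 17 genes, 8 fell in WT EBs (7.33% of all genes) and 3 in KD EBs (6.45%).

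The stretches before the starts of Chac1 and Herpud1 are shown because each holds the core of the composite site, TGATGNAA on either strand, in capitals. They are the 200 bases before the start in RefSeq on the plus strand of GRCm38.p6, at chr2:119351042-119351241 for Chac1, where the match begins at position -193 from the start, and at chr8:94386229-94386428 for Herpud1, where it begins at position -112.
Chac1: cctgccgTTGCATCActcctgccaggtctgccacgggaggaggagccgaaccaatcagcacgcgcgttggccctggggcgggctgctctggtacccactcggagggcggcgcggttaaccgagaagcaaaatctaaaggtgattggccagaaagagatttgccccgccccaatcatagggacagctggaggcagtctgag
Herpud1: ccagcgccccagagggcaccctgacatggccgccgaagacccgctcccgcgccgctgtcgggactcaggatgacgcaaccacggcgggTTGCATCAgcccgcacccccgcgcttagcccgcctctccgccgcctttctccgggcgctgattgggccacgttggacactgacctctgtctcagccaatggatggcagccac
In windows of 250 bases before to 50 after the start, 3 of the 6 promoters of genes that fell held this core (50%), against 342 of 14418 promoters of measured genes (2.37%) and 1304 of 32851 in the whole table (3.97%). The motif was chosen after the values were seen, and a match is a description of letters. The list was made of genes of this response, so a share above that of all genes is built in. The listed genes that did not fall were not counted on their own.

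Part of the interferon-response genes rose. Interferons act through complexes with IRF factors, which bind interferon-stimulated elements and turn on guanylate-binding proteins (GBPs), immunity-related GTPases (IRGs) and genes of antigen presentation. Gbp2b and Irgm2 were among the 12 largest rises, and the list around them was chosen after their values were seen, so that it gets no test. Gbp2b was at 6.96, 7.36 and 7.29 in day 4 EBs, against 4.06, 3.77 and 3.83 in day 2 EBs, a rise of 3.32 (SE 0.281, limma adjusted p = 2.87e-12). Irgm2 was at 6.52, 7.25 and 6.93 at day 4, against 4.14, 3.80 and 3.90 at day 2, a rise of 2.95 (SE 0.161). Gbp2, a close paralog of Gbp2b whose probes may share signal with it, was at 6.85, 7.24 and 7.08 at day 4, against 4.23, 4.87 and 4.31 at day 2. Each of these 3 genes was higher on every day 4 array. Igtp, another IRG, rose by 1.50 (SE 0.147). B2m, the light chain of MHC class I, was at 11.35, 11.52 and 11.63 at day 4, against 9.69, 9.95 and 9.84 at day 2. Gbp7, Psmb8, Ifitm1, Oasl2 and Irf1 rose by 1.06 to 1.69. Of 35 measured genes of the list 10 rose and none fell, with a median of 0.38. The count was 5 with the brightest 60% of probe sets. The other 25 did not pass, among them Ifit1 (0.31), Ifit3 (-0.22), Rsad2 (-0.18), Irf7 (-0.20), Tap1 (0.18), Psmb9 (0.22) and H2-K1 (0.35). In the other lines Irgm2 fell, by 1.04 in WT EBs and 1.46 in KD EBs, and Igtp by 1.27 and 1.39.

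The 200 bases before the starts of 4 of these genes are shown for the elements they hold, all on the plus strand of GRCm38.p6. Capitals mark the core of the interferon-stimulated element on either strand, which is GAAA, any 2 bases and GAAA. The coordinates are chr11:58214777-58214976 for Irgm2, chr11:58199356-58199555 for Igtp, chr3:142594647-142594846 for Gbp2b and chr3:142620463-142620662 for Gbp2.
Irgm2: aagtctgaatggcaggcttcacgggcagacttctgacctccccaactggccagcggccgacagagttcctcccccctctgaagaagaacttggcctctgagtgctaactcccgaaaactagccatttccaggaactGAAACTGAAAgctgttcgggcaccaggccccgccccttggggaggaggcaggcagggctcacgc
Igtp: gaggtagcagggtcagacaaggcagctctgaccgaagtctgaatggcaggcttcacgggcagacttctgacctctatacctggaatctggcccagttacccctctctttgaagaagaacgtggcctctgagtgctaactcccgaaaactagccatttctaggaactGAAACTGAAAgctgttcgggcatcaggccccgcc
Gbp2b: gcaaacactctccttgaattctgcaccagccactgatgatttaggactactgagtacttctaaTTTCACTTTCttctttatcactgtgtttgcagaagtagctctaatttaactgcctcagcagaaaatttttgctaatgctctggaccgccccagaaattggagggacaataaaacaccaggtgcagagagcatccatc
Gbp2: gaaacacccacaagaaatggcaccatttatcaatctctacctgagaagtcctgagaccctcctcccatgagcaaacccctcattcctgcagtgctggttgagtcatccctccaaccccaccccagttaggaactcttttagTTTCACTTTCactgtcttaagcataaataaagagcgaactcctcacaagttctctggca
The core began at position -64 from the start in Irgm2, -34 in Igtp, -137 in Gbp2b and -59 in Gbp2. The core was in 6 of 11 promoters of the 10 interferon genes that rose (54.5%), against 417 of 14418 promoters of measured genes (2.89%), 22 of 475 promoters of all risen genes (4.63%) and 1131 of 32851 in the whole table (3.44%). The motif was chosen after the values were seen. The genes are interferon targets by the choice of the list, so a share above that of all genes is built in. The listed genes that did not rise were not counted on their own. Irgm2 and Igtp hold nearly the same letters around the match, and Gbp2 and Gbp2b lie close together. Their promoters are thus not separate cases.

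**Figure D2:**
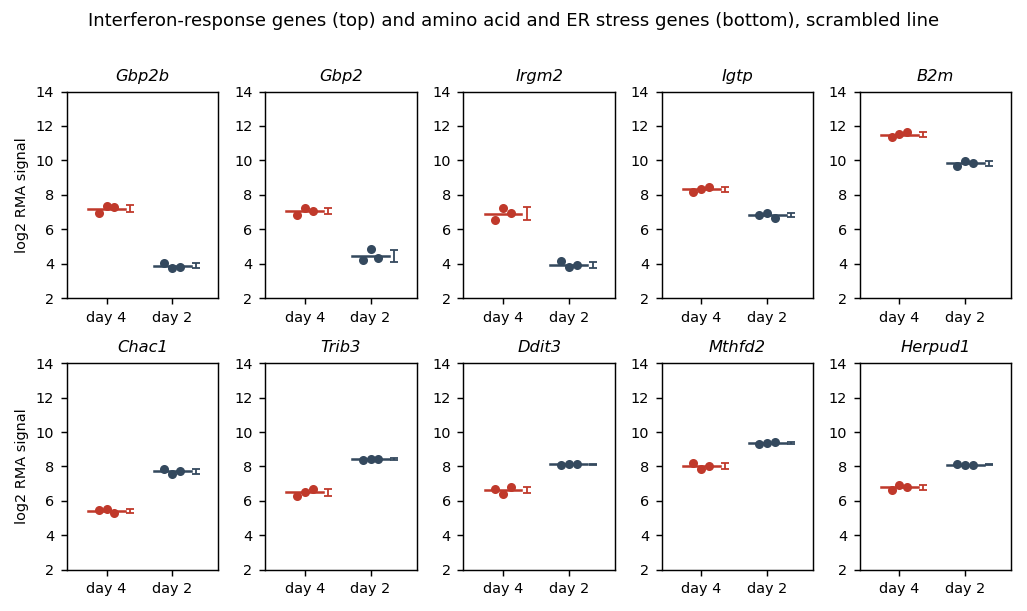
Log2 signal (vertical axes) of 5 interferon-response genes (top) and 5 amino acid and ER stress genes (bottom) on each SCR array, with day 4 left of day 2. Points are arrays, lines means and bars SD (n = 3 each). All 5 top genes were higher and all 5 bottom genes lower on each day 4 array. Every called gene had no overlap of the days, as had 49.2% of all genes.

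Several of the largest changes were in genes of none of the lists above. After Tagln came Slc39a8, a zinc and manganese transporter, at 9.75, 9.72 and 9.76 in day 4 EBs, against 6.04, 6.59 and 6.28 in day 2 EBs, a rise of 3.44 (SE 0.212, limma adjusted p = 6.32e-16). Epha7, an ephrin receptor, rose by 3.25, Ccn1, a matricellular protein and Yap1 target, by 3.18, Zfp521, a zinc finger factor, by 3.08, Colec12, a scavenger receptor, by 2.89 and Prss23, a serine protease, by 2.71. Among the falls, Spink10, of the Kazal-type protease inhibitors, was at 3.63, 3.77 and 3.47 at day 4, against 7.70, 7.25 and 7.63 at day 2. Its fall of 3.90 (SE 0.183, adjusted p = 2.94e-19) was the largest. Nupr1, a stress-induced chromatin protein, fell by 2.87, Nlrp4f, an oocyte NLR protein, by 2.93, Laptm5, a lysosomal membrane protein, by 2.73, P2rx7, an ATP-gated channel, by 2.62 and Gadd45g, a growth arrest protein, by 2.60. Timm8a2, Ampd3, D1Pas1, Ttn and Accsl fell by 2.38 to 2.75, but the 6 probe sets of Ttn ran between -2.41 and 0.09 and their mean of -0.71 did not pass. Of the 235 genes that fell, 40 were under the lower quartile at day 4, and of the 432 that rose, 86 were under it at day 2, where the size of a change is not exact.

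Several lists held no call or few, where 3.06% of all genes rose and 1.67% fell. None of 7 genes of the 2-cell-like state, 16 glycolysis genes or 17 genes of cholesterol synthesis passed. Of 29 cell cycle genes 1 rose, Ccnd2, and 1 fell, Myc, at 7.71, 7.89 and 7.95 in day 4 EBs against 8.98, 8.74 and 8.97 in day 2 EBs. Ccnd2 was at 0.77 on the mean of its probe sets, and Myc at -0.98 without day 4 array 1. Of 19 hypoxia genes 1 fell, Epas1, the oxygen-regulated factor HIF-2α, by 2.18 (SE 0.34). Of 17 p53 targets Perp and Btg2 rose, by 1.83 and 1.31. Of 11 trophoblast genes Eomes and Tfap2c rose and Ascl2 fell, while Elf5, Tpbpa and Gata3 were under the lower quartile. The summed linear signal of that list was 652 to 943 on day 4 arrays and 405 to 441 on day 2 arrays, and its part in the rise of Eomes and Tfap2c was not tested. Of 12 blood and endothelial genes 1 fell, Tek, and 9 were under the lower quartile at day 4 and 7 at day 2. In the Mage family 1 of 8 measured genes rose, Magel2, by 1.08 (0.98 without day 4 array 2 and 0.97 with centred arrays).

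**Figure D3:**
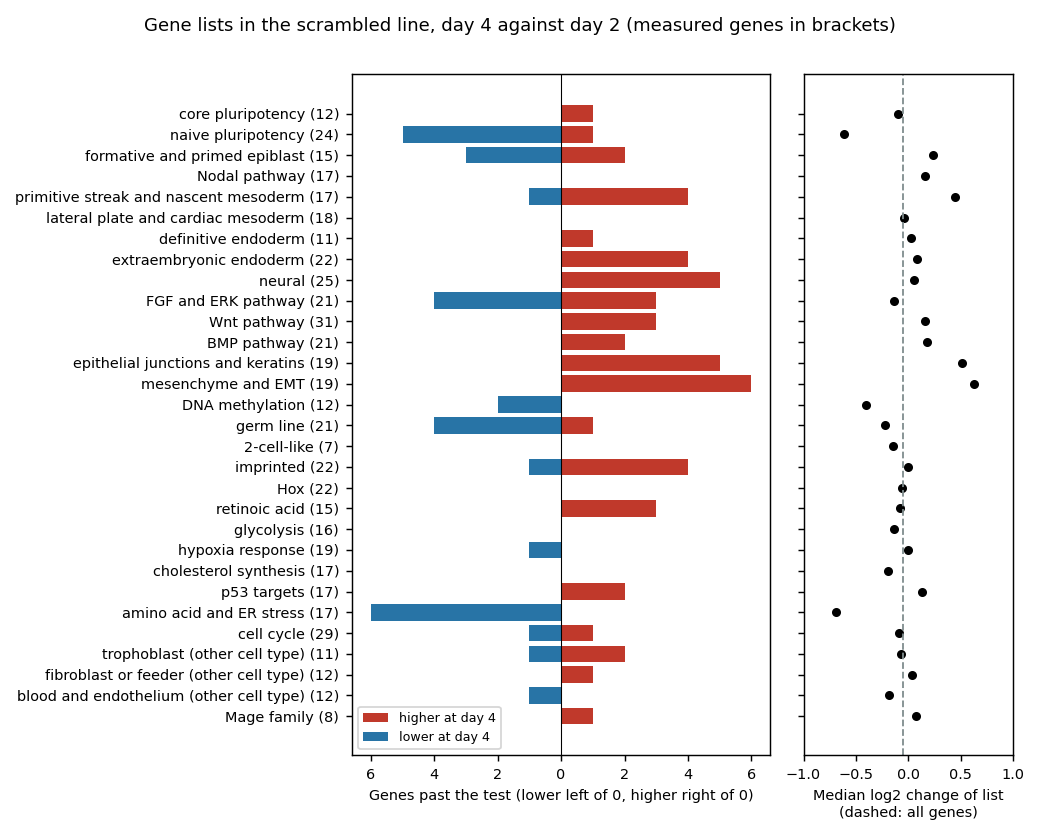
Gene lists in SCR EBs, day 4 against day 2. Left, number of measured genes past the test (higher to the right of 0, lower to the left). Right, median log2 change of each list, with the median of all genes (-0.05) dashed. The mesenchymal list had 6 higher, the amino acid and ER stress list 6 lower.

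The step was set against the same step in WT and KD EBs, which share no arrays with it. The change differed between SCR and WT at 2720 probe sets (8.79%), and between SCR and KD at 2900 (9.37%), by the limma test of the difference itself. Both differences use the same SCR arrays. Of 12 core pluripotency genes 7 changed less negatively or more positively in SCR than in WT and none the other way, where 6.16% of all genes were higher and 4.40% lower in this difference. Pou5f1 differed by 0.00 between the days in SCR EBs, against a fall of 2.49 in WT EBs, a difference of 2.49 (limma adjusted p = 8.59e-09). Nanog rose by 1.47 in SCR EBs and fell by 1.25 in WT EBs, a difference of 2.72 (adjusted p = 1.17e-09). Of 15 formative and primed genes 11 were on the higher side of the difference and 2 on the lower. Pim2 changed by 1.03 in SCR EBs, against -4.10 in WT EBs and -4.46 in KD EBs. Pou3f1 changed by -0.38, against -5.30 in WT EBs and -5.38 in KD EBs. Of 25 neural genes 8 were higher in the difference and 1 lower, with Neurod1 at -0.20 in SCR EBs against -4.21 in WT EBs.

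On the other side, 13 of 17 streak genes and 14 of 18 lateral plate and cardiac genes were lower in the difference of SCR from WT, with 1 and none higher. Mixl1 changed by 0.26 in SCR EBs, against 4.65 in WT EBs and 3.23 in KD EBs, and Mesp1 by 0.04 against 3.90 and 2.69. Hand2, a bHLH factor of the heart, changed by 0.05 in SCR EBs, against 6.25 in WT EBs. Rgs5, a G-protein regulator of pericytes, was at 2.75, 3.11 and 2.77 in day 4 SCR EBs, against 2.70, 2.55 and 3.13 in day 2 SCR EBs, and rose by 7.25 in WT EBs and 7.47 in KD EBs. Sox17 changed by -0.27 in SCR EBs, against 5.84 in WT EBs and 6.06 in KD EBs. Aplnr, the apelin receptor of early mesoderm, was at 2.67, 3.98 and 4.29 in day 4 SCR EBs, against 2.77, 2.71 and 2.56 in day 2 SCR EBs, and did not pass, while it rose by 8.04 in WT EBs. Without day 4 array 1 its SCR change was 1.46 and passed. Of 19 mesenchymal genes 9 were lower in the difference and 2 higher.

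Some genes changed in the same direction in all 3 lines. Dnmt3l changed by -2.45 in SCR EBs, -2.32 in WT EBs and -2.76 in KD EBs, and the difference of SCR from WT was -0.13 (limma adjusted p = 0.798). Dsp rose by 3.08, 3.38 and 3.41, and Ccn1 by 3.18, 2.90 and 2.49, in SCR, WT and KD EBs. Eomes rose by 2.13 in SCR EBs, 3.10 in WT EBs and 1.92 in KD EBs, and its difference of -0.97 from WT was under the 2-fold minimum. These p-values do not show that the lines act alike. Of the 432 genes that rose in SCR EBs, 214 (49.5% of them and 22.2% of the 965 genes, 6.84% of all, that rose in WT) also rose in WT EBs and 35 fell there. Of the 235 that fell, 154 (65.5%, and 14.9% of the 1034 genes that fell in WT) also fell in WT EBs and 5 rose. With KD EBs, in which 6.91% of all genes rose and 6.45% fell, the shared counts were 195 (45.1%) and 111 (47.2%). The lines already differed at day 2, at 596 probe sets between SCR and WT and 1114 between SCR and KD. Fst, for instance, averaged 4.99 in day 2 SCR EBs and 8.42 in day 2 WT EBs, while its day 4 means were 8.28 ± 0.587 (SD, n = 3) in SCR EBs and 8.08 in WT EBs.

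**Figure D4:**
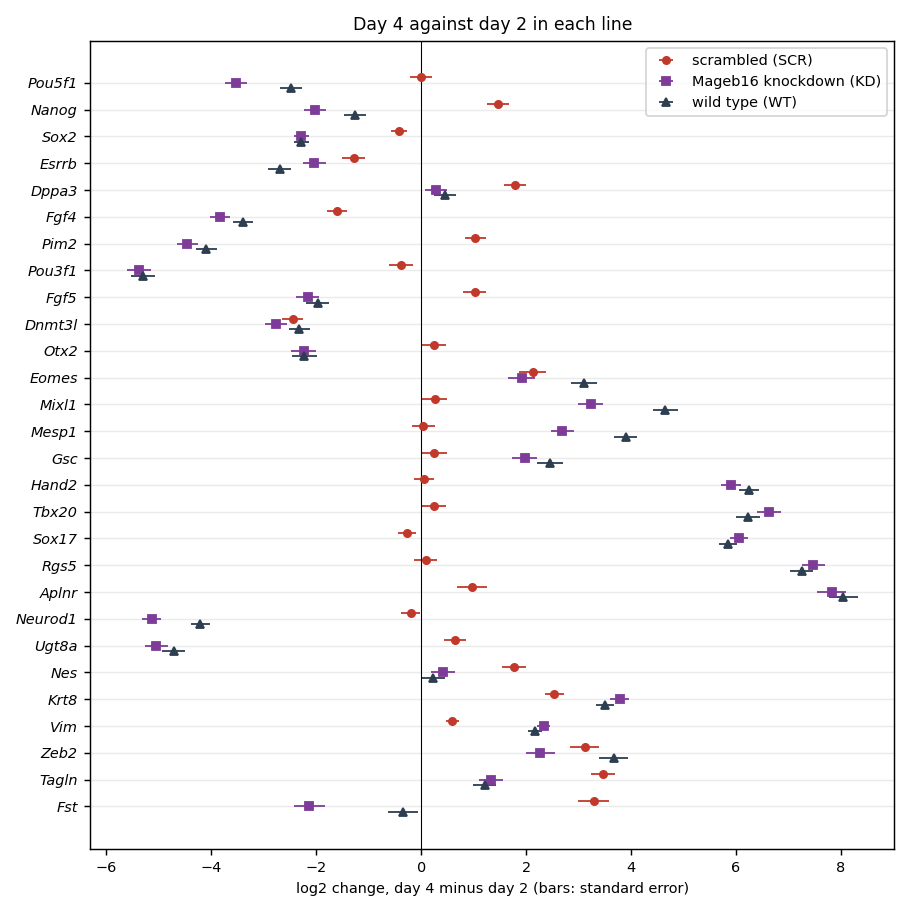
Log2 change from day 2 to day 4 (horizontal axis) of 28 genes in SCR (red circles), KD (purple squares) and WT EBs (dark triangles), with standard errors. Dnmt3l and Eomes changed alike in sign in all lines, while Pou5f1 stayed near 0 and Mixl1, Mesp1, Hand2 and Rgs5 did not pass in SCR EBs.

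Over the whole course of the SCR line, the changed genes were followed from day 0 to day 22. Of the 432 genes that rose, 268 had a higher mean at day 2 than at day 0, and 314 were still at least 2-fold above day 2 at day 12. Of the 235 that fell, 116 were lower at day 2 than at day 0, and 119 were still at least 2-fold under day 2 at day 12. These counts share the day 2 and day 4 arrays with the calls and are a description. The same shares over all genes were not counted, so these counts have no background to be read against. Genes called for a low or high day 2 mean also tend to differ from day 2 later. On days 0, 2, 4 and 12 Nanog averaged 11.60, 9.63, 11.10 and 10.62, so that its day 4 rise followed a lower value at day 2. Fgf5 averaged 3.60, 8.19, 9.21 and 7.07 on these days, highest at day 4. Chac1 averaged 5.30, 7.71, 5.44 and 5.10, highest at day 2. Krt8 was at 6.86, 7.94, 10.48 and 10.45 on these days and Tagln at 4.99, 5.97, 9.43 and 9.31, both near their day 4 level at day 12. Irgm2 was at 3.74, 3.95, 6.90 and 4.81, and Gbp2b at 3.25, 3.89, 7.20 and 6.55. Pou5f1 was at 12.08 at day 0 and still at 10.93 ± 0.427 (SD, n = 3) at day 22.

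**Figure D5:**
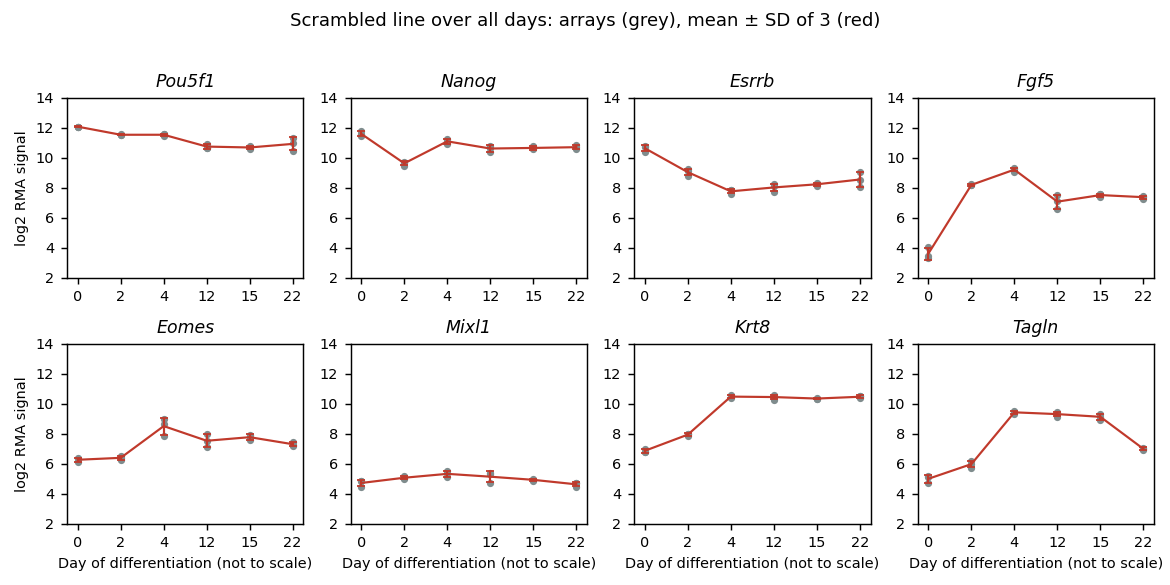
Log2 signal of 8 genes over days 0, 2, 4, 12, 15 and 22 in the SCR line (horizontal axis, days not spaced to scale). Grey points are arrays and red lines join means with SD (n = 3 a day). Nanog was lowest at day 2, Fgf5 and Eomes were highest at day 4, and Krt8 stayed at its day 4 level.

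The promoters of the changed genes were searched for short motifs of stem cell and epithelial factors. In RefSeq windows of 250 bases before to 50 after the start, 475 promoters of 340 risen genes, 216 of 175 fallen genes and 14418 of 11299 measured genes could be searched on both strands. The octamer core ATTTGCA was in 4% of risen, 3.24% of fallen and 3.13% of measured promoters, and the Esrrb core AAGGTCA in 2.32%, 2.31% and 3.4%. The E-box CACGTG was in 4.63%, 10.2% and 9.2%, and the Klf core GGGTGTG in 6.95%, 11.6% and 8.48%. The Zeb and Snail E-box CACCTG was in 21.1%, 19.9% and 18.9%. A Sox core ATTGTT was in 6.53%, 10.6% and 6.44%, and TATAAA in 11.8%, 11.6% and 8.47%. These shares are descriptions with no test.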

How the data were processed

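The authors deposited log2 expression values of 30939 probe sets on 54 arrays, made by RMA (background correction, quantile normalization and probe summary). The submitters' notes name Expression Console and Partek 6.6 for this step, and the methods R Bioconductor. The notes and the methods also name different RNA kits. Genes come from the platform annotation: 25596 probe sets carry 1 symbol, 685 several and 4658 none, and a gene was read from its probe set with the highest mean over all arrays. Group means of all 18 combinations were estimated on all arrays with limma 3.58.1 (lmFit, eBayes) in R 4.3.3. Contrasts were SCR day 4 minus day 2, and its difference from the same change in WT and in KD. The Benjamini-Hochberg adjustment covered all probe sets, and calls needed an adjusted p under 0.05 and at least 2-fold. Errors are moderated standard errors, from a variance of each probe set that all 18 combinations share. On simulated data with 200 changed probe sets, 50 of 50 with a log2 change of 1.5 and 1 of 50 with 0.7 were called, and 1 of 30739 unchanged ones. The number of arrays (3 a group) limits the precision, and signals below the lower quartile of the arrays give changes of inexact size.

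Samples were grouped by title. The members and the 30 gene lists were chosen with earlier results of these data known, and 2 further lists after seeing the values. The named genes were the 12 largest rises and falls with no overlap between the days, up to 5 called members of each list, genes the study names, a set of defining genes, and the 6 largest differences from WT and KD in each direction; other genes named in the text were chosen after their values were seen, or are members of a list given to show its spread. Replicate numbers did not pair the arrays (correlations of deviations between -0.124 and 0.065). Alternatives were quantile normalization again, median centring, the brightest 60% of probe sets, only the compared arrays, a replicate block, a variance trend, array weights, a test against 2-fold, each array left out, the mean of a gene's probe sets and, added after seeing the data, only probe sets with 1 symbol. Promoters are from RefSeq (GRCm38.p6), matched by symbol.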

Additional observations from a re-analysis of the deposited data

Results flagged for a closer look

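The results below were picked out because the change from day 2 to day 4 in SCR EBs differed from that in another line by the limma test of the difference itself (adjusted p under 0.05 and at least 2-fold). In all, 2720 probe sets differed between SCR and WT and 2900 between SCR and KD. Both share the SCR arrays. Values are the log2 change in SCR EBs minus that in the other line.

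Genes of vessels, heart and endoderm stood lowest. The difference from WT and from KD was -7.17 and -7.39 for Rgs5, -7.16 and -6.41 for Nrp1, -7.08 and -6.86 for Aplnr, and -6.69 and -7.73 for Spink1. It was -6.20 and -5.85 for Hand2, -6.12 and -6.34 for Sox17, and -5.99 and -6.39 for Tbx20. Against WT, streak and endoderm genes were at -4.42 for Gata6, -4.39 for Mixl1, -3.86 for Mesp1, -3.11 for Foxa2, -2.21 for Gsc and -1.13 for Wnt3. Vim was at -1.58 and Klf4 at -1.27.

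Genes on the other side included neural adhesion molecules and epiblast factors. The difference from WT and from KD was 5.36 and 5.69 for Ugt8a, 5.13 and 5.49 for Pim2, 4.92 and 5.0 for Pou3f1, 4.63 and 5.32 for Nrcam, and 4.60 and 4.66 for Gpm6a. It was 4.32 and 4.69 for Slc27a2, 4.00 and 4.93 for Neurod1, and 3.64 and 5.43 for Fst. Against WT, pluripotency and germ line genes were at 3.43 for Mael, 2.72 for Nanog, 2.49 for Pou5f1, 1.86 for Sox2, 1.41 for Esrrb, 1.28 for Dnmt3b, 1.28 for Mageb16 and 1.26 for Zfp42. Epiblast, neural and junction genes were at 2.99 for Fgf5, 2.47 for Otx2, 1.72 for Pax6 and 1.59 for Cdh1. Fgf8, counted with the streak genes above, was at 1.30, unlike the streak genes with negative differences. Its mean was nevertheless lower in SCR than in WT EBs on both days. It was 4.07 against 6.56 at day 2, and 6.04 against 7.23 at day 4.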

How the results depend on the processing

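With the brightest 60% of probe sets, which tests fewer probe sets, 1160 passed in SCR day 4 against day 2 (891 higher, 269 lower), 1807 in the difference from WT (745 lower) and 1931 in that from KD (910 lower). In the test against a 2-fold change, which asks for more than a 2-fold estimate, these counts were 370 (301 higher, 69 lower), 951 (502 higher, 449 lower) and 1115 (574 higher, 541 lower). With only probe sets of 1 gene symbol, 832 were higher in SCR day 4 against day 2. Leaving out 1 array gave 1615 to 2075 probe sets (1176 to 1671 higher, 400 to 479 lower) in SCR, 2629 to 2898 (1468 to 1701, 1106 to 1287) in the difference from WT and 2831 to 3019 (1434 to 1633, 1289 to 1485) in that from KD. The other alternatives kept each of the 9 counts within 1.5 times, and no named gene that either fit called changed sign. The replicate numbers do not pair the arrays, and with the replicate block 1782, 2721 and 2901 probe sets passed, which changed no call of a named gene or list. Median centring left Fgf5, Pim2, Gnas, Igf2 and Magel2 under the minimum. The mean of all probe sets of a gene left 18 of the 123 named genes under it, and the test against 2-fold left 49. The causes were not tested. Array number and dim signals limit small changes.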

Other observations

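In SCR EBs 32 of 14104 genes rose that fell past the test in both WT and KD EBs. Both differences, which share the SCR arrays, passed for all 32. The genes were found by looking for this pattern, so that it is a description. Among them were genes of axons and neuronal adhesion, beside others such as Pim2, Magel2, Irgm2 and Igtp. Gap43, a growth cone protein, was at 7.01, 7.04 and 7.11 in day 4 SCR EBs, against 4.31, 5.34 and 5.33 in day 2 SCR EBs, and changed by -1.46 in WT EBs and -1.29 in KD EBs. Gpm6a, a neuronal membrane glycoprotein, was at 6.27, 5.97 and 6.16 at day 4, against 3.49, 3.89 and 3.93 at day 2. Nrcam, an adhesion molecule of axons, was at 5.95, 6.94 and 6.51 at day 4, against 4.77, 4.45 and 4.62 at day 2. For both genes the 3 day 4 arrays lay above the day 2 arrays. The other lines could already be high at day 2. Nrcam then averaged 7.19 in WT EBs and 7.79 in KD EBs, above its day 4 SCR mean of 6.47. Pim2 (10.97 and 11.18 against 10.92) and Magel2 (7.42 and 7.43 against 7.02) were likewise above. Gpm6a (4.94 and 5.25 against 6.13) and Irgm2 (5.52 and 5.64 against 6.90) were under it. Sema3c and Sema3e, secreted semaphorins, rose by 1.63 and 1.27, Cdh10, a cadherin of the brain, by 1.29 and Nefl, a neurofilament, by 1.37. The opposite pattern, a fall in SCR EBs and a rise in both other lines, held for 5 genes, Lxn, Hsd11b2, Gfpt2, Tbx3 and AA414768.

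Actin-binding proteins and genes known to respond to SRF or YAP were counted in a list chosen after the values were seen. Of 32 measured genes 13 rose and none fell in SCR EBs, where 3.06% of all genes rose and 1.67% fell. Their median was 0.82 against -0.05 over all genes. The list was not particular to the SCR line. In WT EBs 16 rose and none fell (median 1.00), and in KD EBs 17 rose and 1 fell (median 1.12). Of all genes 6.84% rose in WT EBs and 6.91% in KD EBs. Besides Tagln, Ccn1, Amot, Acta2 and the keratins, Anxa3, an annexin, was at 8.86, 8.60 and 8.77 in day 4 SCR EBs, against 6.12, 6.36 and 6.32 in day 2 SCR EBs. Cald1, caldesmon, was at 10.24, 10.39 and 10.39 at day 4, against 8.42, 8.44 and 8.50 at day 2. Itgb5, an integrin chain, rose by 2.09 and Thbs1, thrombospondin, by 1.92. Srf and Yap1 themselves differed by 0.06 and 0.19, and Ankrd1, a further target, by 0.05.

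Of 22 measured imprinted genes 4 rose and 1 fell. Sgce, a sarcoglycan, rose by 1.51 and Ndn, a Mage family protein, by 1.20. Igf2 was at 7.31, 7.37 and 7.33 in day 4 EBs, against 6.55, 5.69 and 6.53 in day 2 EBs, and changed by 5.93 in WT EBs, against 1.08 in SCR EBs. Without day 2 array 2 the SCR change of Igf2 was 0.80, and on the mean of its probe sets 0.67. Gnas rose by 1.04 (0.93 with centred arrays) and Ascl2, a trophoblast factor, fell by 1.50.

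Probe sets without a gene symbol were counted on their own. Of 4658 such probe sets 527 (11.3%) were higher and 33 (0.708%) lower at day 4, with a median change of 0.17, against 432 (3.06%) and 235 (1.67%) of the 14104 probe sets read for genes. Their median level at day 2 was 4.33, against 6.86 for the genes. In WT EBs 447 of them were higher and 120 lower, and in KD EBs 552 and 104. The part of signal level in this was not tested.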
